A study of Mus musculus with 2 samples.

Results

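The genes described here are 8 chemokines and chemokine receptors that guide T cells into and within the skin. They are the receptors Ccr6, Cxcr6, Ccr4 and Ccr8 and the ligands Ccl20, Cxcl16, Ccl22 and Ccl5. They were taken by symbol from the 27998 genes of the deposited tables, and each matched 1 gene. Levels are given as CPM, the unique molecular identifiers (UMIs) of a gene per 1000000 UMIs that all genes had in the same cells. Receptors were read mainly in T cells sorted by marker genes in the data, and ligands in tissue cells and mononuclear phagocytes.

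Single-cell RNA was sequenced from wound skin of wild-type male C57BL/6J mice aged 6 to 8 weeks. Circular wounds of 1.8 cm on the back received the TLR9 agonist ODN2395, a CpG oligodeoxynucleotide, at 4 μg per dose on days 0, 3 and 6 (TLR9agonist_LW), or the control on the same days (WT_LW). Cells of the wound centre, from punches of 5 mm, were collected 2 days after the scab had come off, and epidermis and dermis were dissociated separately, then recombined, and dead cells were removed. The control is PBS in the labels and a control oligonucleotide in a legend of the study, and application is given as spraying in the labels and as dropwise addition or injection in the study. The mice per group are given as 6 in the study's results text, while its methods give 5 samples per group. Each group gave 1 library of pooled cells, so there were no replicates and no test between groups. Every interval below is an exact 95% interval for counting error only. A limit or a fold given beside a count of 0 is set by 3 counts of the total instead. Pooled mice, preparation and treatment cannot be told apart.

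Chemokines are small secreted proteins that bind G protein-coupled receptors on leukocytes and steer their migration. In skin, CCR6 and its ligand CCL20 are known for recruiting IL-17-producing and regulatory T cells to the epidermis, CXCR6 binds the membrane-anchored chemokine CXCL16, and CCR4 binds CCL17 and CCL22. CCR8 marks skin-homing and regulatory T cells and binds CCL1 and, in mice, CCL8, while CCL5 acts through CCR1 and CCR3, among others.

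The 8 genes were placed on GRCm38 with GENCODE, through the Ensembl identifiers of the tables. The labels name mm9 as the build of the counts, so these positions serve only to place the genes. Ccl20 spans chr1:83116766-83119167 on the plus strand, Ccr6 chr17:8236043-8257141 on the plus strand and Ccl22 chr8:94745590-94751699 on the plus strand. Cxcr6 (chr9:123806475-123811760, plus strand), Ccr4 (chr9:114490316-114504916, minus strand) and Ccr8 (chr9:120092114-120094906, plus strand) share a chromosome. Cxcl16 (chr11:70453983-70459984) and Ccl5 (chr11:83525778-83530518) lie on the minus strand. The first 552 bases of Cxcl16 (chr11:70459433-70459984) overlap Zmynd15 on the opposite strand. Whether the counting used strand is not given in the sources used here, so reads in that stretch are uncertain between these genes.

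The sequences just before the starts of Ccl20, Ccr6 and Ccl22 are shown because Ccl20 and Ccl22 had the largest library differences of the ligands in their main cell class, and Ccr6 is the receptor of Ccl20. They come from RefSeq on GRCm38.p6, run 5′ to 3′ on the strand of the gene, and cover chr1:83116516-83116765, chr17:8235793-8236042 and chr8:94745434-94745589. Capitals mark matches on either strand to a 10-letter kappaB consensus (the binding motif of NF-kB), to the AP-1 site TGANTCA or to the nuclear receptor half-site AGGTCA, which reads TGACCT on the other strand.
Ccl20: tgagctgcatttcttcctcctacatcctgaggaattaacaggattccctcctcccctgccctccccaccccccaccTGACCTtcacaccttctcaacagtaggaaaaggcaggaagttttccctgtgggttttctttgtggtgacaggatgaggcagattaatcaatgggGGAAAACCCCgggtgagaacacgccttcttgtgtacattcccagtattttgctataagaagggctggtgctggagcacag
Ccr6: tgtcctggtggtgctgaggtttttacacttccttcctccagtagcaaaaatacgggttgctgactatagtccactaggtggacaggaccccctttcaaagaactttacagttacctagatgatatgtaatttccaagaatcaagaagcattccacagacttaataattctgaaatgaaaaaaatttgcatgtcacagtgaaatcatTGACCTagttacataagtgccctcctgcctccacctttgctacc
Ccl22: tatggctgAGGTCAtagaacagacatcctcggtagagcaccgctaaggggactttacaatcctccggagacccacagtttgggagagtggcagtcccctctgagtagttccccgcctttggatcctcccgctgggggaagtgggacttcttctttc
The Ccl20 window holds a kappaB match from 80 to 71 bases before the start and an AGGTCA match from 174 to 169 bases before it. In the Ccr6 window AGGTCA matched from 44 to 39 bases before the start, and in the Ccl22 window from 242 to 237 bases before the RefSeq start. Among the windows of 250 bases of all 32851 promoters in the table, 3.90% hold the kappaB consensus, 6.75% the AP-1 site and 14.0% AGGTCA. Windows were given for 6 of the 8 genes, Cxcl16 and Ccl5 being the others. A second start of Ccr6 (chr17:8242276-8242525) has kappaB matches, and the Ccr4 window has an AP-1 match (TGAGTCA) from 143 to 137 bases before its start. These are matches of letters and not shown binding sites.

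The libraries held 12800 and 13751 cell barcodes with 99374045 and 132339022 UMIs in WT_LW and TLR9agonist_LW, the order kept for all paired values below. After filters and removal of predicted doublets (1048 and 1395 cells), 10395 and 11811 cells with medians of 5095 and 5732 UMIs were used, of which 1544 and 1354 were in clusters set aside. The libraries shared 47 barcodes, 31 of them among the cells used. T cells were gated on UMIs of marker genes: Foxp3+ (333 and 212 cells), Cd4+ Foxp3- (1216 and 775), Cd8+ (462 and 240), Ncr1+ Cd3- (77 and 26) and gdT17-marker+, which needed at least 2 of Cd163l1, Blk, Sox13 and 5830411N06Rik and no Cd4 or Cd8 UMI (417 and 1044). The Ncr1+ Cd3- gate took cells with a UMI of Ncr1 or Klrb1c and none of Cd3e, Cd3d or Cd3g. Of the 1461 gdT17-marker+ cells, 1435 lay in sub-clusters named gdT17 from markers, and their Il17a level was 1222 and 9195 CPM. Many cells passed a gate at its minimum, 72.2% and 83.3% of gdT17-marker+ cells, 51.4% and 54.6% of Cd4+ Foxp3- cells and 39.0% and 28.3% of Foxp3+ cells. The 2501 ungated T and NK cells were a mixture, 1023 from CD4 helper and 845 from gdT17 sub-clusters, and are not described as a subset. All 17 keratinocyte markers were seen in keratinocytes, at 51506 and 43631 CPM summed. In the 4 T cell gates the same list summed to between 645 and 852 CPM in WT_LW and between 2351 and 3074 CPM in TLR9agonist_LW, with all 17 seen in each. The 11 fibroblast markers summed to between 1688 and 2196 CPM and between 2917 and 3710.3 CPM there, and the 19 phagocyte markers to between 585 and 789 CPM and between 326 and 435 CPM. Their part in T cell values was not tested. The median gene of a class, over genes with at least 200 UMIs, lay at a log2 ratio of −0.40 in keratinocytes, −0.17 in gdT17-marker+, −0.16 in Cd4+ Foxp3-, −0.09 in Foxp3+ and −0.06 in Cd8+ cells. Ratios are TLR9agonist_LW over WT_LW.

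The receptors were found mainly in T and NK cells, and the ligands in several classes. T and NK cells held 89.3% and 95.0% of all Ccr6 UMIs, 92.7% and 93.6% of Cxcr6, 94.4% and 95.6% of Ccr4, and 93.6% and 91.3% of Ccr8. Mononuclear phagocytes held 89.0% and 94.3% of the Ccl22 UMIs, and T and NK cells held 70.1% and 71.8% of those of Ccl5. The sources of Ccl20 and Cxcl16 shifted between the libraries. Keratinocytes held 47.5% of Ccl20 UMIs in WT_LW and 71.1% in TLR9agonist_LW, and 3.55% and 26.4% of those of Cxcl16. These shares depend on how many cells of each class were captured as well as on the level per cell.

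**Figure D1:**
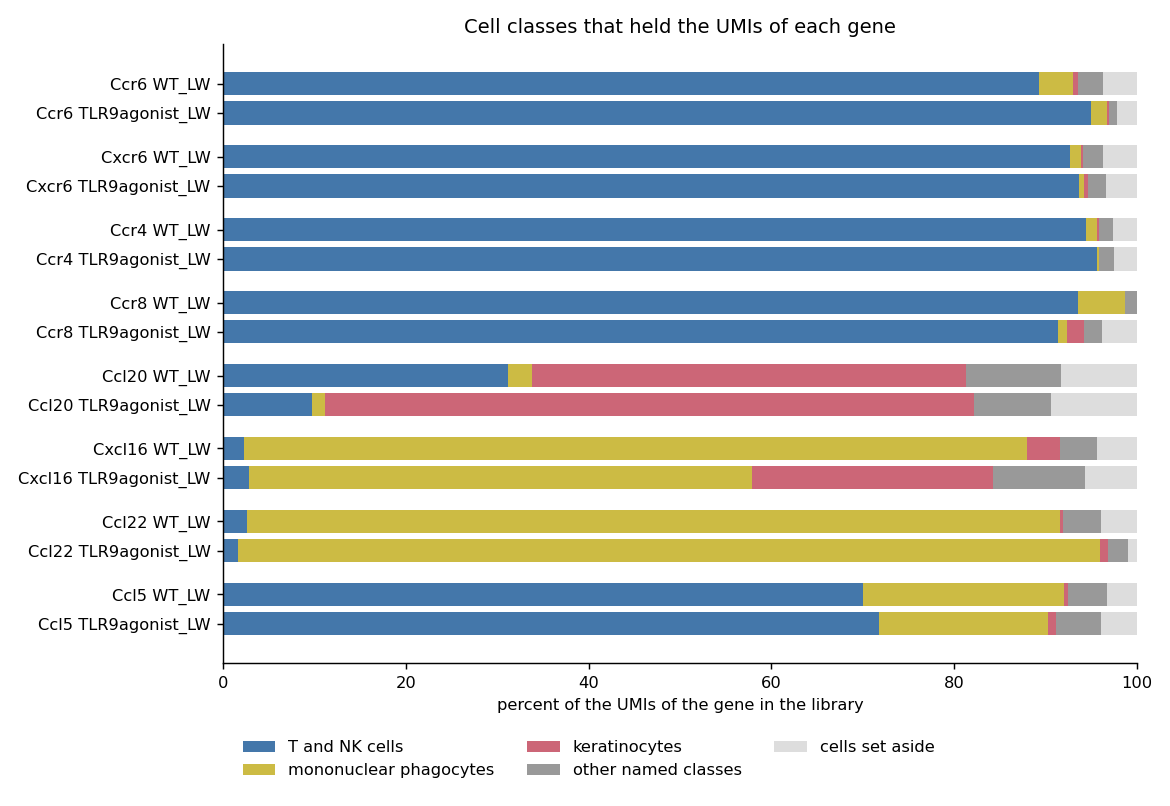
Share of the UMIs of each gene (x axis, percent of the gene's UMIs in the library) held by T and NK cells, mononuclear phagocytes, keratinocytes, other named classes and cells set aside, with 1 bar per gene and library. The 4 receptor genes lie almost wholly in T and NK cells, and the keratinocyte part of Cxcl16 is 3.55% in WT_LW and 26.4% in TLR9agonist_LW.

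Ccl20, the ligand of CCR6, was highest in keratinocytes and was 4.38-fold higher there in TLR9agonist_LW. Its level was 33.9 CPM (29.9 to 38.3, 259 UMIs in 415 cells) in WT_LW and 149 CPM (144 to 154, 3673 UMIs in 1055 cells) in TLR9agonist_LW. The log2 ratio was 2.13 (1.95 to 2.32), and 2.53 relative to the median gene of keratinocytes. With equal weight for each cell it was 3.33. Of all genes tested in keratinocytes, 2.89% were higher by 2-fold or more and 17.8% lower by 2-fold or more. In cells thinned to 1500 UMIs, 2.67% of keratinocytes had a Ccl20 UMI in WT_LW (10 of 375, 40 shallower cells left out) and 11.2% in TLR9agonist_LW (118 of 1055). Without thinning the shares were 9.16% and 32.7%, at median depths of 14855 and 23157 UMIs. Schwann cells, which are not known as a source of Ccl20, had a Ccl20 UMI in 0 of 668 thinned cells, which allows up to 0.449%, and in 1.41% of 425, at median depths of 6909 and 6060 UMIs.

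Ccl20 was higher across keratinocyte sub-clusters. Of 9 keratinocyte sub-clusters, formed without the genes described here, 7 had at least 20 cells in WT_LW, and Ccl20 was higher in TLR9agonist_LW by 2-fold or more in each of the 7. The highest level, 363 CPM against 38.7 CPM, was in the sub-cluster led by Alox12e and Krt79, a keratin of the upper hair follicle. The sub-cluster led by Slc5a1 had 46.1 and 302 CPM, at median depths of 26402 and 8182 UMIs. That led by Nusap1, a mitotic spindle gene, had 7.97 and 33.1 CPM, from 7 and 86 UMIs, with a log2 interval of 0.95 to 3.41. In the Mt4-led sub-cluster Ccl20 was at 42.5 and 129 CPM, and in the Il19-led at 27.7 and 108 CPM. The Gsta4-led and the Lor-led sub-cluster, loricrin being a protein of the cornified envelope, had no Ccl20 UMI in WT_LW. Against 3 counts, their levels of 132 and 86.0 CPM in TLR9agonist_LW were at least 10.7-fold and at least 5.85-fold higher, and the exact intervals of their log2 ratios began at 3.11 and 2.24. Cells of those sub-clusters were shallow in WT_LW: the median UMI count was 1845 and 3527 there, and 30648 and 32593 in TLR9agonist_LW. Shares of all genes past 2-fold were taken for keratinocytes as a whole and not by sub-cluster.

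**Figure D2:**
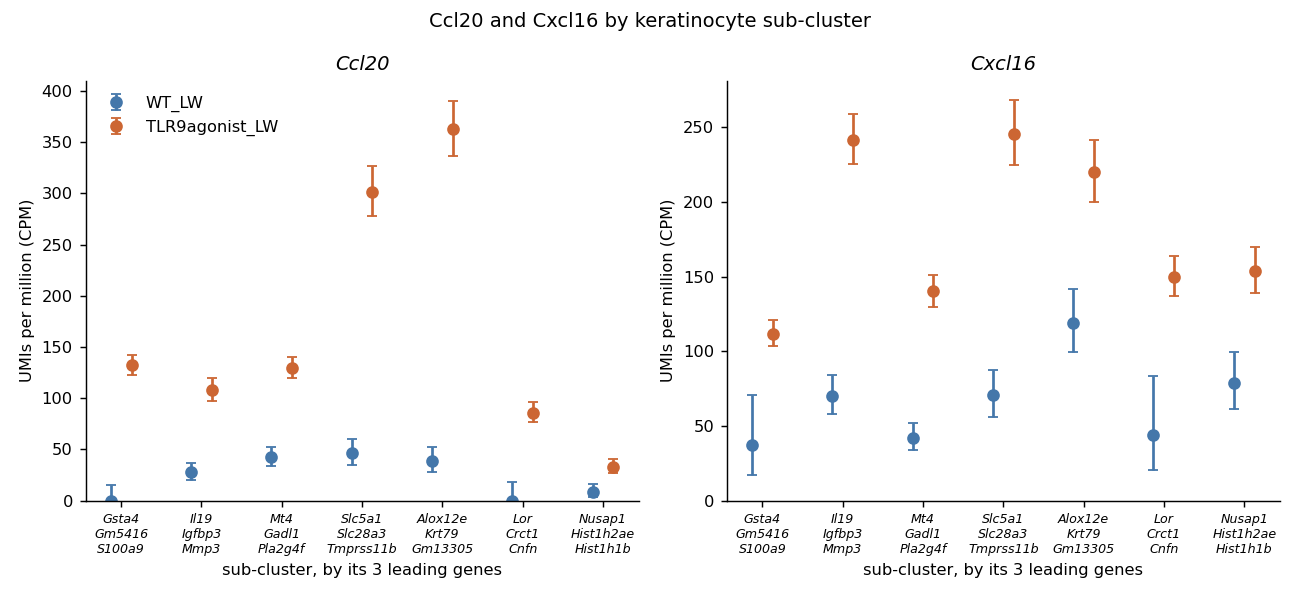
Levels of Ccl20 and Cxcl16 (y axes, CPM) in the 7 keratinocyte sub-clusters with at least 20 cells in WT_LW, named by their 3 leading genes; points are the libraries and bars exact 95% Poisson intervals. Ccl20 is higher in TLR9agonist_LW in each, up to 363 CPM in the Alox12e-led sub-cluster, and Cxcl16 is higher in each, by at least 2-fold in 5. Of these, the Gsta4-led and the Lor-led rest on 9 Cxcl16 UMIs each in WT_LW.

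Outside keratinocytes the highest Ccl20 level over both libraries, among classes with at least 50 UMIs, was in Cd4+ Foxp3- T cells. Their level was 16.6 CPM (118 UMIs) in WT_LW and 40.8 CPM (194 UMIs) in TLR9agonist_LW, but 1 cell held 50% of the latter. Without the cell with the most Ccl20 UMIs in each library the levels were 14.3 and 20.4 CPM, a log2 ratio of 0.52 (0.10 to 0.93), and with gates at 2 UMIs the ratio was 0.27, while with equal weight per cell it was 2.12. Of thinned Cd4+ Foxp3- cells 1.25% and 2.33% had a Ccl20 UMI. In TLR9agonist_LW the share was 3.1% in neutrophils, 2.57% in mast cells, 2.40% in ungated T and NK cells and 2.10% in macrophages. The intervals of these shares overlap that of Cd4+ Foxp3- cells. Per 1000 keratinocyte marker UMIs, keratinocytes had 0.66 and 3.41 Ccl20 UMIs and Cd4+ Foxp3- cells 25.8 and 17.4. The same quotient was 3.56 and 2.54 in Schwann cells and 3.01 and 8.85 in fibroblasts. In gdT17-marker+ cells Ccl20 was at 1.14 and 14.8 CPM (2 and 71 UMIs). Those cells had 4.81 Ccl20 UMIs per 1000 keratinocyte marker UMIs in TLR9agonist_LW (3.75 to 6.06), against 3.41 (3.30 to 3.52) in keratinocytes and 4.87 (3.31 to 6.91) in macrophages. The part of free keratinocyte RNA in these T cell values was not tested. Fibroblasts had 1.23 and 10.8 CPM of Ccl20 (17 and 320 UMIs), a log2 ratio of 3.13 that was 1.25 with doublets kept.

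**Figure D3:**
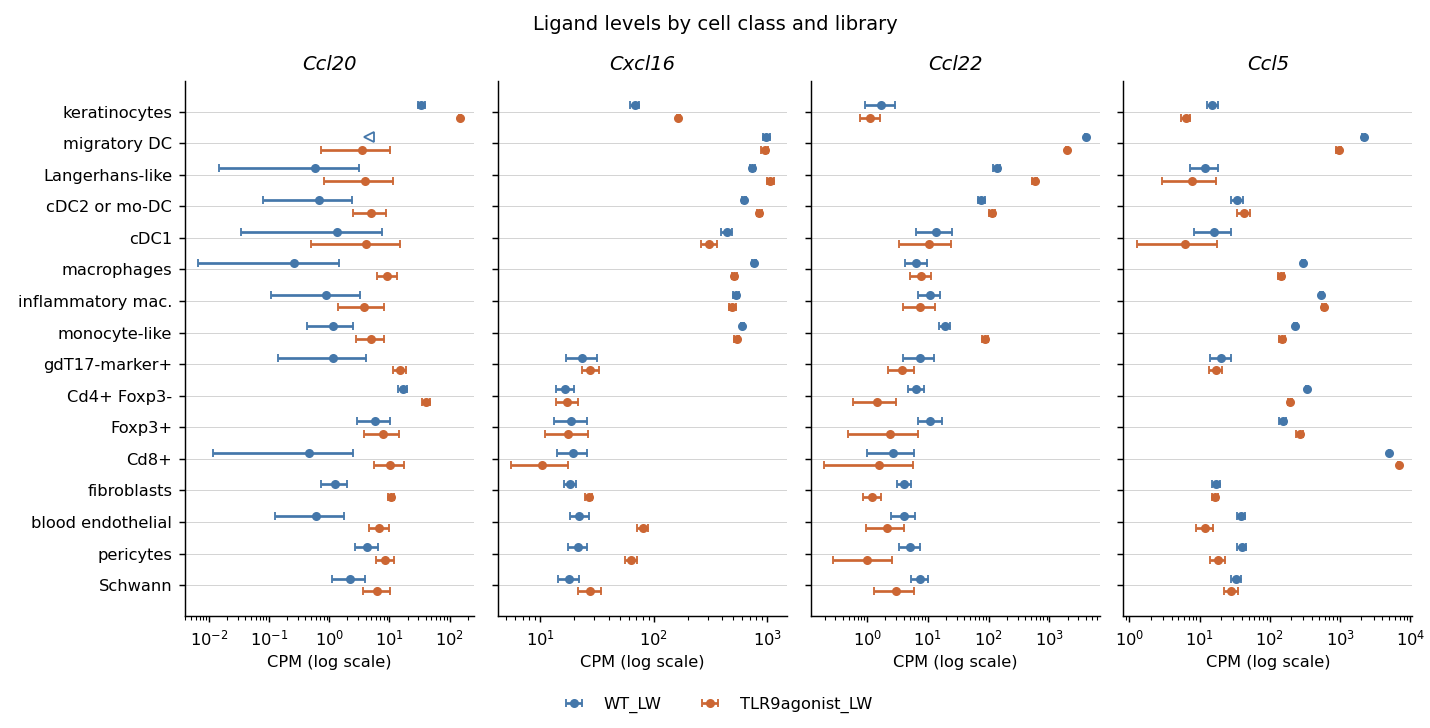
Levels of the 4 ligands (x axes, CPM, log scales that differ between panels) in 16 cell classes; points are the libraries, bars exact 95% Poisson intervals, and the open triangle the upper end of that interval where no UMI was counted. Ccl20 peaks in keratinocytes, Cxcl16 in phagocytes, Ccl22 in migratory dendritic cells (DC) and Ccl5 in Cd8+ T cells in both libraries.

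The level of Ccr6, the receptor of CCL20, did not differ between the libraries beyond counting error in any of the 4 T cell gates. It was at 46.5 CPM (37.3 to 57.2, 89 UMIs) in Foxp3+ cells of WT_LW and at 50.8 CPM (39.1 to 64.9, 64 UMIs) in those of TLR9agonist_LW, a log2 ratio of 0.13 (−0.36 to 0.61). In Cd4+ Foxp3- cells it was at 41.3 and 37.9 CPM (293 and 180 UMIs), with a log2 ratio of −0.12 (−0.40 to 0.15). The intervals of these gates overlap in both libraries, so their order is not resolved. The gdT17-marker+ cells had a lower Ccr6 level than either, 12.0 CPM (7.41 to 18.3) and 11.2 CPM (8.44 to 14.7), from 21 and 54 UMIs. Their log2 ratio was −0.09 (−0.84 to 0.71). Cd8+ cells had 4.95 and 10.3 CPM from 11 and 13 UMIs, with intervals that overlap between the libraries and those of gdT17-marker+ cells. In the ungated T and NK cells, a mixture, the Ccr6 level was 40.0 CPM in WT_LW and 19.4 CPM in TLR9agonist_LW, with −1.04 (−1.39 to −0.70) as their log2 ratio. In thinned cells, 6.25% and 3.75% of Cd4+ Foxp3-, 6.23% and 7.73% of Foxp3+ and 2.03% and 1.06% of gdT17-marker+ cells had a Ccr6 UMI. Unthinned, these were 15.3% and 11.5%, 50 of 333 and 37 of 212 cells, and 4.56% and 3.74%. Of thinned Cd8+ cells 1 of 456 and 6 of 239 had a Ccr6 UMI. The intervals of the thinned shares overlap between the libraries in each gate. In Cd4+ Foxp3- cells, where the share was lower in TLR9agonist_LW, they were 4.95 to 7.77% and 2.53 to 5.34%. Of thinned Schwann cells 1 of 668 had a Ccr6 UMI in WT_LW and 0 of 425 in TLR9agonist_LW, which allows up to 0.706%.

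Cxcr6, the receptor of CXCL16, was higher in TLR9agonist_LW in each of the 4 T cell gates. It was highest in gdT17-marker+ cells, at 1141 CPM (1091 to 1192, 2001 UMIs) and 1688 CPM (1651 to 1725, 8111 UMIs), a log2 ratio of 0.57 (0.49 to 0.64). Cd4+ Foxp3- cells had 426 and 929 CPM, a log2 ratio of 1.12 (1.06 to 1.19). Foxp3+ cells started lowest among these gates, at 149 CPM, and had 418 CPM in TLR9agonist_LW, a log2 ratio of 1.49 (1.28 to 1.70). Cd8+ cells had 411 and 564 CPM, a log2 ratio of 0.46 (0.31 to 0.60), and in WT_LW their interval (385 to 438) overlapped that of Cd4+ Foxp3- cells (411 to 442). In TLR9agonist_LW the 4 gates were separate. In Ncr1+ Cd3- cells the 95.4 and 119 CPM, from 42 and 15 UMIs, did not differ beyond counting error. The level in keratinocytes was only 2.75 and 4.41 CPM. Il17a, which marks the gdT17-marker+ cells, was also higher in the other gates, at 46.5 and 307 CPM in Foxp3+, 336 and 717 CPM in Cd4+ Foxp3- and 33.7 and 521 CPM in Cd8+ cells. Its part, and that of free RNA of gdT17-marker+ cells, in the Cxcr6 values was not tested.

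Detection of Cxcr6 moved with its level. Of thinned gdT17-marker+ cells 72.4% and 81.6% had a Cxcr6 UMI, of Cd4+ Foxp3- cells 40.4% and 65.3%, of Foxp3+ cells 19.6% and 35.3%, and of Cd8+ cells 38.6% and 49.8%. Unthinned shares were 87.8% and 93.8%, 67.7% and 88.8%, 34.8% and 50.5%, and 63.6% and 78.3%. Between 1 and 22 cells per gate and library were too shallow to be thinned. The background in thinned Schwann cells was 1.05% and 0.941%. Over all cells used Cxcr6 was at 108 and 221 CPM, while gdT17-marker+ cells made up 4.01% and 8.84% of the cells. Among genes tested, 4.99% were higher by 2-fold or more in gdT17-marker+ cells, 2.74% in Cd4+ Foxp3- cells, 2.68% in Foxp3+ cells and 2.10% in Cd8+ cells, and Cxcr6 was past 2-fold in Cd4+ Foxp3- and Foxp3+ cells.

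**Figure D4:**
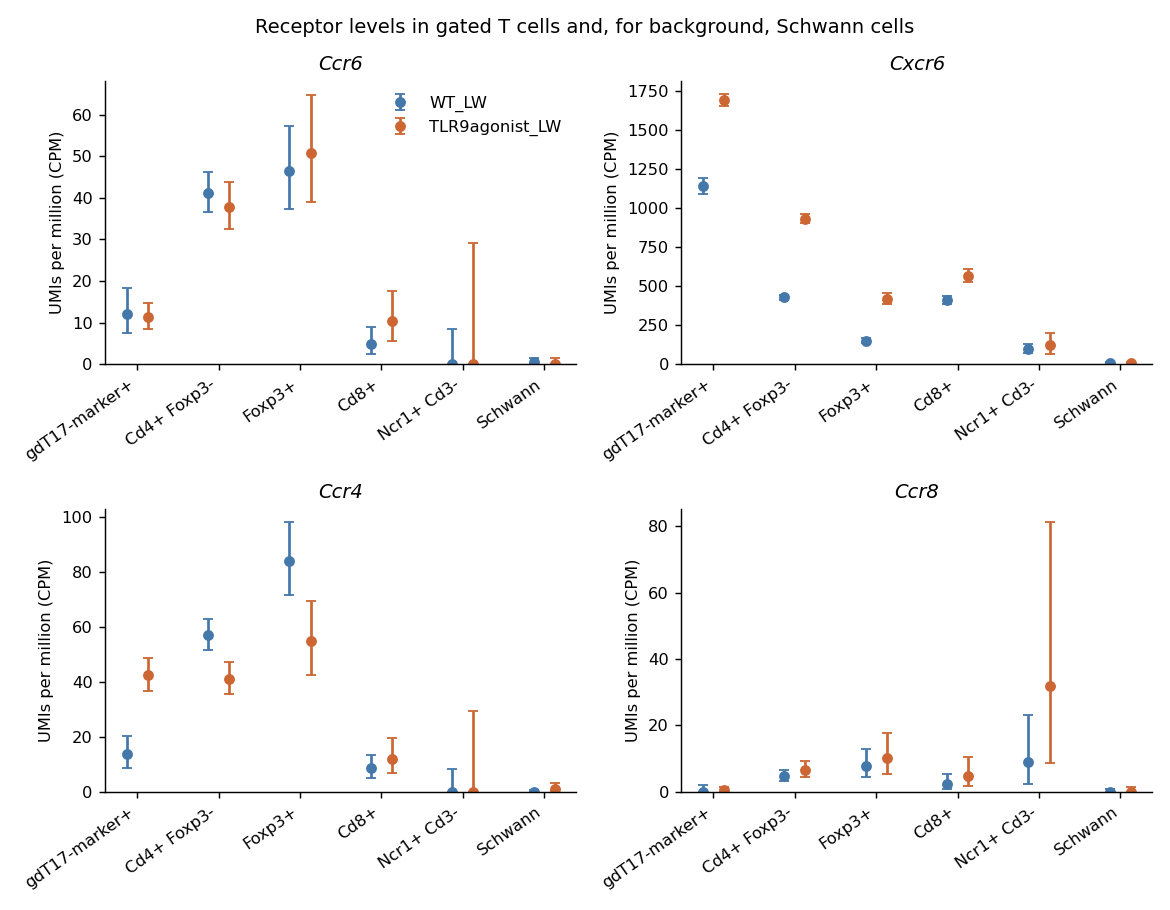
Levels of the 4 receptors (y axes, CPM, scales that differ between panels) in 5 gates of T and NK cells and, as background, in Schwann cells; points are the libraries and bars exact 95% Poisson intervals. Cxcr6 is higher in TLR9agonist_LW in the 4 T cell gates, Ccr6 overlaps between the libraries in each, and Ccr4 is higher only in the gdT17-marker+ cells beyond the intervals.

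Cxcl16, the ligand of CXCR6, stayed highest in phagocytes but was 2.41-fold higher in keratinocytes of TLR9agonist_LW. Migratory dendritic cells had 979 CPM (912 to 1049) and 954 CPM (890 to 1022), a log2 ratio of −0.04 (−0.18 to 0.11). Langerhans-like cells, the dendritic cells of the epidermis, had 738 and 1062 CPM, a log2 ratio of 0.53 (0.40 to 0.65). The cDC2 or monocyte-derived dendritic cells had 622 and 853 CPM, whereas macrophages differed the other way, with 762 and 513 CPM and a log2 ratio of −0.57 (−0.66 to −0.48). Monocyte-like cells (604 and 539 CPM) and inflammatory macrophages (533 and 492 CPM) lay close together, and cDC1 had 442 and 307 CPM. In WT_LW the intervals of macrophages and Langerhans-like cells overlap, as do those of cDC2 or monocyte-derived dendritic cells and monocyte-like cells, so their order is not resolved. In TLR9agonist_LW migratory dendritic cells overlap both Langerhans-like and cDC2 or monocyte-derived cells, and monocyte-like cells, macrophages and inflammatory macrophages overlap each other.

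In keratinocytes Cxcl16 was at 67.9 CPM (62.1 to 74.0, 518 UMIs) and 164 CPM (159 to 169, 4047 UMIs), a log2 ratio of 1.27 (1.14 to 1.41) and of 1.67 relative to the median gene. The thinned share of cells with a UMI was 8.53% and 24.5%, and the unthinned share 49.2% and 85.5%. Thinned Schwann cells had 3.14% and 4.24%. It was higher in TLR9agonist_LW in each of the 7 larger sub-clusters and by 2-fold or more in 5 of them. Of these, the Gsta4-led and the Lor-led had 9 Cxcl16 UMIs each in WT_LW, from shallow cells. The intervals of their log2 ratios began at 0.65 and 0.83, short of 2-fold. The Alox12e-led sub-cluster had 119 and 220 CPM, and the other 6 ranged from 37.2 to 78.6 CPM in WT_LW and from 112 to 246 CPM in TLR9agonist_LW. Cxcl16 was also higher in blood endothelial cells, with 22.1 and 80.0 CPM and a log2 ratio of 1.86 (1.54 to 2.18). Pericytes had 21.5 and 63.0 CPM, with a log2 ratio of 1.55 (1.22 to 1.89). With doublets kept these ratios were 1.26 and 0.98. Of the genes tested 3.92% were higher by 2-fold or more in blood endothelial cells and 3.27% in pericytes. Schwann cells had 17.8 and 27.3 CPM and fibroblasts 18.4 and 26.7 CPM, the lowest of these tissue classes in TLR9agonist_LW. The median gene lay at −0.36 in blood endothelial cells and in pericytes. Zmynd15, which overlaps Cxcl16, had 20 and 51 UMIs in keratinocytes. It had 584 and 554 UMIs in migratory dendritic cells, the class with the highest Cxcl16 level over both libraries. The part of the overlap in the Cxcl16 values was not tested. Adam10 and Adam17, the proteases that release CXCL16 from the membrane, had keratinocyte levels of 65.4 and 46.1 CPM and of 50.7 and 40.7 CPM, log2 ratios of −0.50 and −0.32 around the median gene of −0.40.

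Ccl22, a ligand of CCR4, was lower in its main source and higher in Langerhans-like cells of TLR9agonist_LW. Migratory dendritic cells had 3949 CPM (3813 to 4087, 3219 UMIs in 84 cells) and 1957 CPM (1864 to 2053, 1672 UMIs in 85 cells), a log2 ratio of −1.01 (−1.10 to −0.93). Of genes tested in that class, 6.15% were lower by 2-fold or more. The ratio was short of 2-fold with doublets kept (−0.99), without the Harmony correction (−0.88), with equal weight per cell (−0.74) and relative to the median gene (−0.92). In thinned cells 78.9% and 61.9% had a Ccl22 UMI, against 89.3% and 90.6% unthinned, and thinned Schwann cells had 1.35% and 0.706%. The summed level of the 8 markers of migratory dendritic cells also differed, 8108 and 5427 CPM, and its part in the Ccl22 difference was not tested. Langerhans-like cells had 136 CPM (119 to 154, 239 UMIs in 139 cells) and 579 CPM (527 to 636, 441 UMIs in 58 cells), a log2 ratio of 2.09 (1.86 to 2.33). There 1 cell of TLR9agonist_LW held 33.8% of the UMIs, and without the top cells the levels were 116 and 392 CPM, a log2 ratio of 1.76 (1.49 to 2.02), and without the cells richest in UMIs of other classes the ratio was 3.00. All 6 Langerhans markers were seen in both libraries, at 6523 and 10683 CPM summed. In Langerhans-like cells 6.03% of genes were higher by 2-fold or more. The share of thinned Langerhans-like cells with a Ccl22 UMI was 11.8% (16 of 136) and 22.4% (13 of 58), and 34.5% and 51.7% unthinned. The cDC2 or monocyte-derived dendritic cells had 75.3 and 114 CPM, a log2 ratio of 0.60 (0.34 to 0.86). In monocyte-like cells the 19.0 and 88.1 CPM rested on 1 cell with 55.6% of the UMIs of TLR9agonist_LW, and the ratio turned direction under 3 other settings.

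Ccl17, the other ligand of CCR4, was lower in dendritic cells of TLR9agonist_LW, by less than 2-fold in its main sources. It was at 422 and 308 CPM in migratory dendritic cells, a log2 ratio of −0.46 (−0.69 to −0.22), and at 319 and 200 CPM in cDC2 or monocyte-derived dendritic cells, a log2 ratio of −0.67 (−0.84 to −0.51). In Langerhans-like cells, where Ccl22 was higher, Ccl17 was at 56.3 and 28.9 CPM from 99 and 22 UMIs. Ccl17 was lower by 2-fold or more in cDC1, but higher by 2-fold or more in inflammatory macrophages. The shares of all genes past 2-fold in those classes are not given here.

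Ccr4 differed in opposite directions in different T cells. Foxp3+ cells had 84.1 CPM (71.6 to 98.1, 161 UMIs) and 54.8 CPM (42.6 to 69.3, 69 UMIs), a log2 ratio of −0.62 (−1.05 to −0.20). Cd4+ Foxp3- cells had 56.9 and 41.0 CPM (404 and 195 UMIs), a log2 ratio of −0.47 (−0.73 to −0.22). The gdT17-marker+ cells had 13.7 CPM (8.77 to 20.4, 24 UMIs) in WT_LW and 42.5 CPM (36.8 to 48.7, 204 UMIs) in TLR9agonist_LW, a log2 ratio of 1.63 (1.02 to 2.31). The interval of this ratio does not overlap those of Foxp3+ or Cd4+ Foxp3- cells, which compares these libraries and not the conditions. Over the 9 alternatives tried for that gate the ratio ranged from 1.21 to 1.85. In TLR9agonist_LW the 3 gates overlapped in level, and in WT_LW they were separate. The share of Ccr4 UMIs in gdT17-marker+ cells was 2.73% and 24.2%. Thinned shares with a Ccr4 UMI were 1.77% and 4.93% in gdT17-marker+, 7.17% and 3.75% in Cd4+ Foxp3- and 9.03% and 6.28% in Foxp3+ cells, and 4.32% and 11.97%, 21.1% and 17.7%, and 27.6% and 18.9% unthinned. Of thinned Schwann cells 0 of 668, which allows up to 0.449%, and 0.235% had one. Cd8+ cells had 8.55 and 11.9 CPM from 19 and 15 UMIs.

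**Figure D5:**
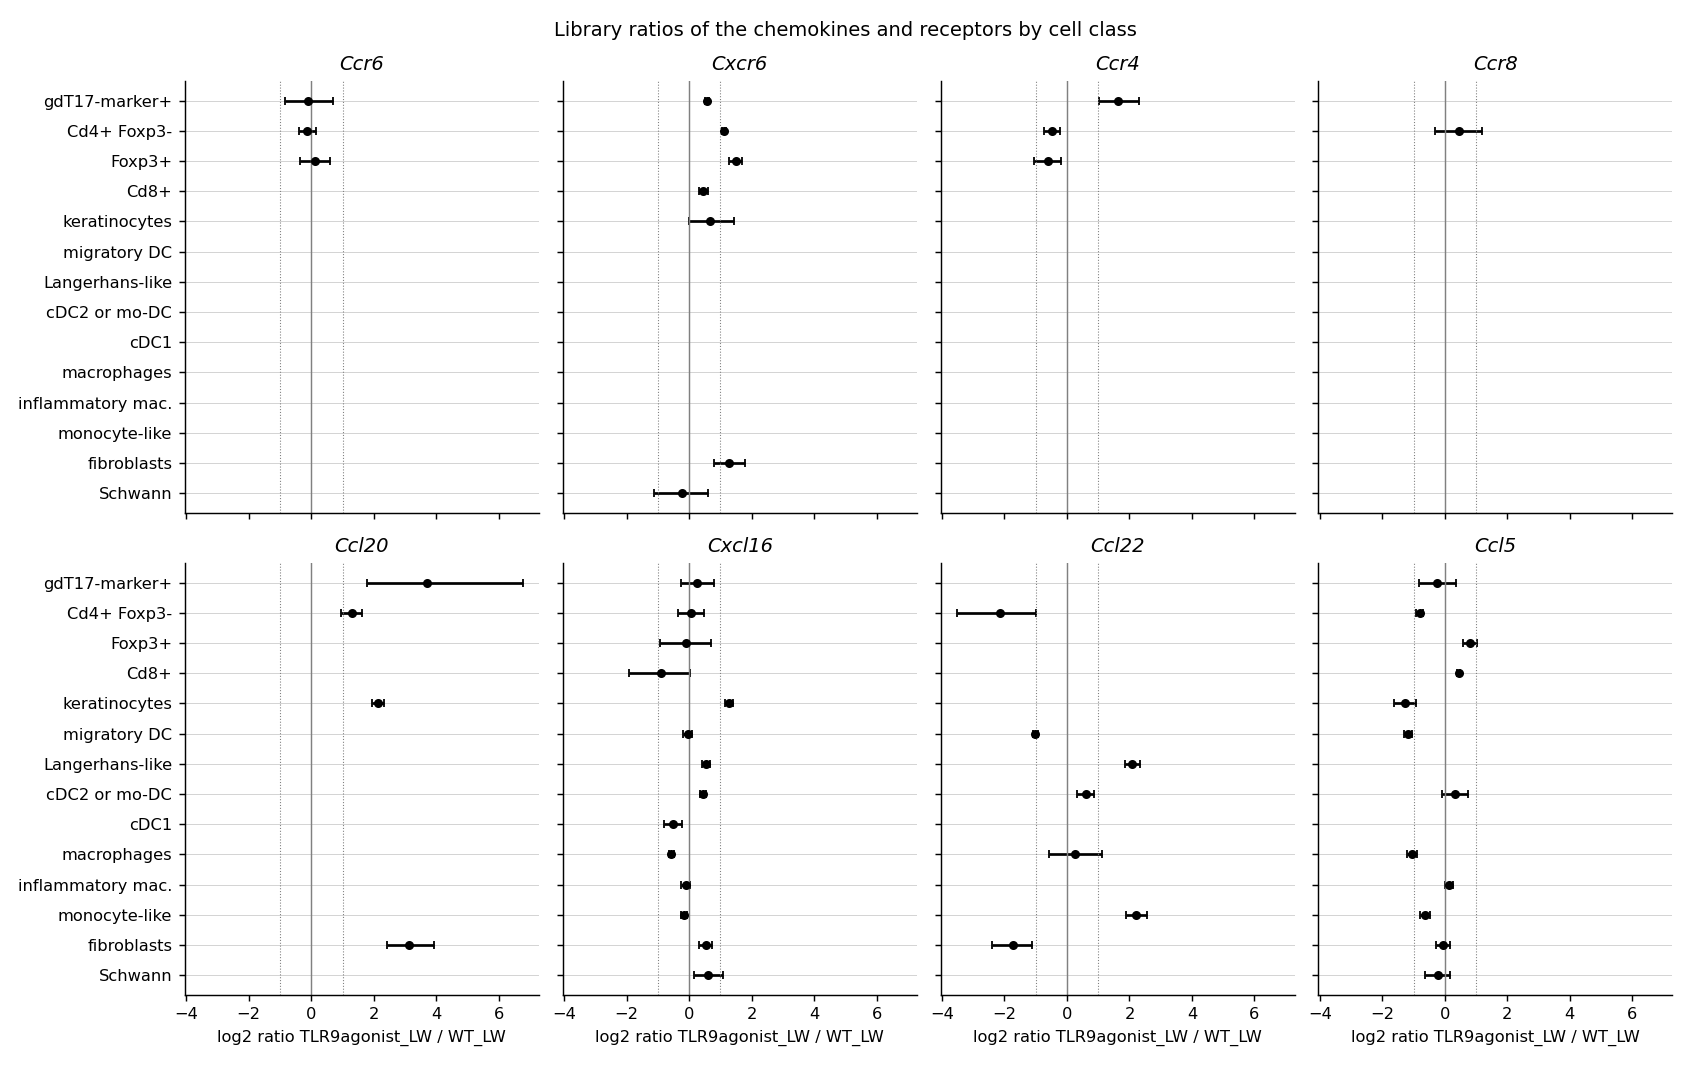
Log2 ratio of TLR9agonist_LW to WT_LW (x axis) for each gene in 14 cell classes, shown where a class had at least 50 UMIs over both libraries and at least 1 in each; bars are exact 95% intervals for counting error and dotted lines mark 2-fold. Cxcr6 lies to the right of 0 in the 4 T cell gates, Ccr4 only in gdT17-marker+ cells, and Ccl22 lies to the left in migratory and to the right in Langerhans-like cells.

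Ccr8 was too sparse for a comparison, with 78 and 104 UMIs in all cells used. Cd4+ Foxp3- cells had 4.79 CPM (3.32 to 6.69, 34 UMIs) and 6.52 CPM (4.43 to 9.26, 31 UMIs), and Foxp3+ cells 7.83 CPM (4.38 to 12.9, 15 UMIs) and 10.3 CPM (5.50 to 17.7, 13 UMIs). The gates overlap each other, and the log2 ratios of 0.45 (−0.30 to 1.19) and 0.40 (−0.79 to 1.57) include 0. In gdT17-marker+ cells there was no Ccr8 UMI in WT_LW, with an exact interval that ends at 2.10 CPM, and there were 2 in TLR9agonist_LW. Its ligand genes were more abundant. Ccl8 was higher in TLR9agonist_LW in macrophages, its main class, while Ccl1 was higher in mast cells and lower in Cd4+ Foxp3- cells. Mast cells had the highest Ccl1 level over both libraries through TLR9agonist_LW. In WT_LW their level was 30.3 CPM, against 40.0 CPM in Cd4+ Foxp3- cells. Ccl1 was lower by 2-fold or more in Cd4+ Foxp3- and in Cd8+ cells, where 6.51% and 6.41% of genes were. Ccl8 was at 1793 and 6156 CPM in macrophages, a log2 ratio of 1.78 (1.74 to 1.82), and at 116 and 450 CPM in fibroblasts, where 2.72% and 3.89% of genes were higher by 2-fold or more. Ccl1 was at 30.3 and 113 CPM in mast cells from 21 and 114 UMIs, but at 40.0 and 8.84 CPM in Cd4+ Foxp3- cells, log2 ratios of 1.90 (1.22 to 2.65) and −2.18 (−2.68 to −1.71). In mast cells 11.4% of genes were higher by 2-fold or more, and in Cd4+ Foxp3- cells 6.51% were lower.

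Ccl5, a chemokine that cytotoxic T cells keep in store, was highest in Cd8+ cells. Their level was 5018 CPM (4925 to 5112, 11151 UMIs) and 6806 CPM (6663 to 6952, 8551 UMIs), a log2 ratio of 0.44 (0.40 to 0.48). The thinned share of Cd8+ cells with a UMI was 70.8% (66.4 to 75.0) and 65.3% (58.9 to 71.3), intervals that overlap, and 77.5% and 70.0% unthinned, beside 2.69% and 2.59% of thinned Schwann cells. Migratory dendritic cells had 2160 and 949 CPM, a log2 ratio of −1.19 (−1.31 to −1.06), which was −0.80 under the stricter filter, −0.90 with doublets kept and with equal weight per cell, and −0.82 without the cells richest in UMIs of other classes. Ccl5 in macrophages was at 300 and 145 CPM, with a log2 ratio of −1.05 (−1.20 to −0.89), where 2.61% of genes were lower by 2-fold or more. That ratio was −0.65 under the stricter filter, −0.59 with doublets kept, −0.83 without the Harmony correction and −0.72 without the cells richest in UMIs of other classes, all short of 2-fold. Inflammatory macrophages stayed at 539 and 589 CPM and Ncr1+ Cd3- cells at 1027 and 1404 CPM, the latter a log2 ratio of 0.45 (0.19 to 0.71) with 21.0% and 27.1% of the UMIs in 1 cell. Cd4+ Foxp3- cells had 335 and 191 CPM, a log2 ratio of −0.81 (−0.92 to −0.70). Foxp3+ cells had 152 and 267 CPM, with 38.4% of the latter in 1 cell, and 136 and 165 CPM without the top cells. In gdT17-marker+ cells Ccl5 was at 19.95 and 16.9 CPM, near the 33.2 and 28.4 CPM of Schwann cells. Over all cells used Ccl5 was at 322 and 157 CPM.

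Ccr1, a receptor of CCL5, was higher by 2-fold or more in gdT17-marker+, Cd4+ Foxp3-, Foxp3+ and Langerhans-like cells of TLR9agonist_LW. In these classes 4.99%, 2.74%, 2.68% and 6.03% of genes were higher by 2-fold or more. Its highest level was in neutrophils, at 639 and 1036 CPM in 45 and 218 cells. Ccr1 was at 56.4 and 178 CPM in gdT17-marker+ cells, a log2 ratio of 1.65 (1.35 to 1.97), and at 22.8 and 61.9 CPM in Cd4+ Foxp3- cells. Ccr3 in Foxp3+ cells was at 10.4 and 31.0 CPM from 20 and 39 UMIs. Ccl3 and Ccl4, inflammatory chemokines related to CCL5, were highest in neutrophils, at 6808 and 5666 CPM and at 5042 and 5175 CPM. In Cd8+ cells Ccl4 was at 1355 and 476 CPM, with a log2 ratio of −1.51 (−1.64 to −1.38), opposite to Ccl5 there, while 6.41% of genes were lower by 2-fold or more.

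Other homing genes, a list of 25 that includes the genes of the last paragraphs, went both ways in T cells. In gdT17-marker+ cells 13 of them had at least 50 UMIs, of which 3 were higher and 3 lower by 2-fold or more (4.99% and 16.1% of all genes), with a median log2 ratio of −0.10 beside −0.17 for the median gene. The 3 higher were Ccl8, Ccr1 and Cdh1, and the 3 lower Adam10, Klf2 and Selplg. In Cd4+ Foxp3- cells 3 of 16 were higher and 2 lower (2.74% and 6.51%), with a median of −0.38 beside −0.16. In Foxp3+ cells 4 of 14 were higher and 0 lower (2.68% and 4.14%), with a median of −0.35 beside −0.09. In Cd8+ cells 2 of 14 were higher and 4 lower (2.10% and 6.41%), with a median of −0.49 beside −0.06. Ccl8, highest in macrophages, was among the higher genes in each of the 4 gates, and also in fibroblasts, blood endothelial cells, pericytes and Schwann cells. Cdh1 was highest in Langerhans-like cells and keratinocytes. The part of free RNA in these T cell values was not tested. Itgae, the integrin chain that binds E-cadherin, was at 324 and 176 CPM in gdT17-marker+ cells, a log2 ratio of −0.88 (−1.03 to −0.72), and at 295 and 229 CPM in Foxp3+ cells. Cd69, which keeps T cells in tissue by blocking S1PR1, was lower in the 4 T cell gates, with log2 ratios from −1.16 in Cd8+ (412 and 185 CPM) to −0.69 in gdT17-marker+ cells (440 and 272 CPM). Klf2, which drives S1pr1, was at 182 and 61.2 CPM in gdT17-marker+ cells, a log2 ratio of −1.57 (−1.81 to −1.34), where 16.1% of genes were lower by 2-fold or more. S1pr1, the exit receptor, was at 97.6 and 73.4 CPM in Cd4+ Foxp3- cells but at 84.2 and 146 CPM in Cd8+ cells. Itga1, a collagen-binding integrin chain of resident T cells, was at 56.2 and 19.1 CPM in Cd8+ cells. Selplg and Fut7, which make selectin ligands for entry from blood, were at 419 and 189 CPM and at 9.12 and 4.37 CPM in gdT17-marker+ cells. Fut7 did not reach 50 UMIs there. Cdh1, which encodes E-cadherin, was at 190 and 273 CPM in keratinocytes and at 384 and 81.5 CPM in Langerhans-like cells, log2 ratios of 0.52 and −2.24, while 18.6% of genes were lower by 2-fold or more in the latter. Ccl27a, the keratinocyte ligand of CCR10, was at 215 and 59.1 CPM in keratinocytes, a log2 ratio of −1.87 (−1.97 to −1.76), summed over 3 gene identifiers with that symbol that can share reads. Ackr4, a scavenger of chemokines, was at 5.37 and 1.30 CPM in keratinocytes and at 3.17 and 5.92 CPM in fibroblasts.

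Each gene was read in the class with its highest level over both libraries among those where it had at least 50 UMIs, which for Ccr8 was the Cd4+ Foxp3- and not the Foxp3+ cells. There 1 of the 8 genes was higher by 2-fold or more (Ccl20 in keratinocytes, where 2.89% of genes were) and 1 was lower (Ccl22 in migratory dendritic cells, where 6.15% were, a call lost under the 4 settings given above), with a median log2 ratio of 0.28. Of 25 other genes of T cell homing, 20 had at least 50 UMIs in some class. In their main class 3 were higher by 2-fold or more, Ccl1 in mast cells (11.4% of all genes), Ccl8 in macrophages (2.72%) and Ccr3 in Foxp3+ cells (2.68%). There 4 were lower, Ccl27a in keratinocytes (17.8%), Cdh1 in Langerhans-like cells (18.6%), Cd69 in Ncr1+ Cd3- cells (5.78%) and Klf2 in neutrophils (13.4%), and the median log2 ratio was −0.26. Ccl1 in mast cells and Ccr3 in Foxp3+ cells reached 50 UMIs mainly through TLR9agonist_LW. These calls of a higher level were thus in part set by the filter. Ccr10, Ccl28, Gpr15, Ackr2 and Zfp683 did not reach 50 UMIs in a class.

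Receptors were seldom seen in the same cell at 1500 UMIs, a depth at which Ccr6 and Ccr4 were each seldom seen at all. Ccr4 and Cxcr6 were seen together in 3 of 395 gdT17-marker+ cells of WT_LW (0.759%, 0.157 to 2.20) and in 41 of 1034 of TLR9agonist_LW (3.97%, 2.86 to 5.34). Of the 51 gdT17-marker+ cells of TLR9agonist_LW with a Ccr4 UMI, these 41 also had one of Cxcr6, which 844 of all 1034 had. Ccr6 and Cxcr6 were seen together in 35 of 1200 and 22 of 773 Cd4+ Foxp3- cells, 2.92% (2.04 to 4.03) and 2.85% (1.79 to 4.28), which did not differ beyond counting error. Of the 75 and 29 Cd4+ Foxp3- cells with a Ccr6 UMI, these 35 and 22 also had one of Cxcr6, which 485 and 505 of all had. Ccr4 and Ccr6 were seen together in 14 of 1200 and 3 of 773 of those cells, where Ccr4 was seen in 86 and 29.

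The genes whose pattern was most like each of the 8 were ranked by Pearson's r of log2(CPM + 1) over 44 points, the 22 classes of both libraries, which share library, depth and free RNA. Ccr6 was most like Cd5 (r = 0.91), Slamf1 (0.90) and Fam169b (0.87), and Cxcr6 most like Icos (0.95), Zap70 (0.95) and Sh2d2a (0.95). Ccr4 was most like Actn2 (0.91), Cd6 (0.90) and Tff1 (0.90), and Ccr8 most like Gimap7 (0.89), Cd2 (0.88) and Cd27 (0.87). Ccl20 was most like Ifi202b (0.84), Pdzk1ip1 (0.82) and Tprg (0.80). Cxcl16 was most like Cd74 (0.93) and the class II genes H2-Aa (0.92) and H2-Eb1 (0.92). Genes much like Ccl22 were Tbc1d4 (0.86) and H2-Eb2 (0.84), and Ccl5 was most like AW112010 (0.79), Adora2a (0.74) and Epsti1 (0.74). These r values describe the points and carry no test.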

How the data were processed

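Per the labels, the authors used fastp, Cell Ranger and Seurat with mm9. The file headers name Cell Ranger 4.0.0, and other versions are not given in the sources used here. The deposited tables hold raw UMI counts per gene and cell, limited by the authors to called cells, without normalization. From these counts, cells with at least 500 UMIs, 300 genes and at most 15% mitochondrial UMIs were kept, and doublets, scored against simulated ones, were removed at 0.8% per 1000 cells. Log-transformed counts scaled to 10000 per cell were clustered. Clustering used 2000 variable genes and 30 principal components (1500 and 20 within a class), without the genes reported, a Harmony correction for library (theta 2, sigma 0.1, lambda 1, 10 rounds), 20 neighbours and Leiden resolution 1, seed 0. A cluster was named when at least 3 markers were in 10% of its cells at a log2 fold of 0.5. Clusters led by genes of another class were set aside. The rule for setting clusters aside was made with the data in view.

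UMIs were summed per class and library. CPM carry exact Poisson, ratios exact conditional binomial and shares Clopper-Pearson 95% intervals. The background was the share of genes past a fold of 2 among those at or above 50 UMIs in a class. The ratio calculation was tested on simulated data. The text names the 8 genes, other homing genes with at least 50 UMIs in a class and the 3 most alike genes among those with at least 200 UMIs. The members, lists and tests were chosen with earlier results of these data known. Settings tried are given in the closing section. Some genes that this rule would name are not reported here. Clustering ran in scanpy (1.11.5) with leidenalg (0.10.2), on anndata (0.12.19) and scikit-learn (1.9.0). Intervals came from scipy (1.17.1), tables from pandas (2.3.3) and numpy (2.4.6) and plots from matplotlib (3.10.9), under Python (3.11.15).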

Additional observations from a re-analysis of the deposited data

Results flagged for a closer look

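The Ccl22 ratio of TLR9agonist_LW to WT_LW had opposite signs in monocyte-like cells, with a log2 ratio of 2.21, and in fibroblasts, with a log2 ratio of −1.74. The difference was not tested, since each group is 1 library. In monocyte-like cells 1 cell held 55.6% of the Ccl22 UMIs of TLR9agonist_LW, the log2 ratio without the top cells was 1.53, and a stricter filter of cells gave −2.90. Fibroblasts had 4.04 and 1.21 CPM of Ccl22, from 56 and 36 UMIs.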

How the results depend on the processing

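No paired analysis was possible because each group had 1 library. For 8 genes, the library ratio in the class with the highest level at 50 UMIs or more and the ratio of that class to the next such class were recomputed. The next class was the ungated mixture for Cxcr6 and Ccr8. Leiden resolution 2 moved none of the 16 values beyond its counting interval, nor did leaving out the top cell for the 8 library ratios, the values it was run on. With equal weight per cell the log2 library ratio became 3.33 for Ccl20, 0.48 for Cxcr6, 0.39 for Ccl5 and −0.74 for Ccl22, and the class ratio 2.75 for Ccl20, 1.57 for Ccl5 and 3.24 for Ccl22. Relative to the median gene the library ratios were 2.53 for Ccl20, 0.74 for Cxcr6, 0.50 for Ccl5 and −0.92 for Ccl22. With T gates at 2 UMIs the Ccl5 library ratio was 0.56 and the Cxcr6 class ratio 0.94. With T sub-clusters in place of gates the Ccl5 library ratio was 0.54, and the class ratios were 1.90 for Cxcr6, 0.13 for Ccr4, 0.97 for Ccr8 and 2.28 for Ccl5. With doublets kept the Ccl5 class ratio was 1.79. Without the Harmony correction the Ccl22 library ratio was −0.88, and the class ratios were 1.79 for Ccl5 and 3.58 for Ccl22, and under the stricter filter that of Ccl22 was 3.24. The cause of these moves was not tested.

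Leaving out cells with UMIs of 2 or more markers of other classes left fewer than 20 cells of the leading classes in a library, 3 of 1044 gdT17-marker+ and 8 of 1055 keratinocytes in TLR9agonist_LW, so it gave no value there. A split at the median of that share was added after seeing the data, as was leaving out the top cell. With the upper part left out the library ratio was 1.68 for Ccl20, 0.64 for Cxcr6, 0.14 for Cxcl16 and 0.62 for Ccl5. The class ratios were then −0.11 for Ccr6, 1.60 for Ccl20, 2.48 for Ccl5 and 3.88 for Ccl22. The sign of the Ccr6 class ratio (0.27 as reported) and of the Cxcl16 library ratio (−0.04) thus changed, and that of Cxcl16 also relative to the median gene (0.05).

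Ratios in other classes reversed as follows. For Ccl22 in monocyte-like cells the log2 ratio was −2.90 with the stricter filter, −1.01 with doublets kept and −1.72 without Harmony. For Ccl5 it was 0.52 in blood endothelial cells, 0.80 in pericytes and 0.73 in neutrophils with the stricter filter, 0.021 in blood endothelial cells with doublets kept and 4.89 in mast cells without cells holding UMIs of other classes. For Ccl20 in pericytes it was −0.18 with the upper part left out. Counting genes with at least 10 UMIs or any UMI raised the share past 2-fold in Cd4+ Foxp3- cells from 9.25% to 15.7% and 30.3%. Low UMI counts limit Ccr8 everywhere, Ccr6 and Ccr4 in gdT17-marker+ cells of WT_LW, and Ncr1+ Cd3- cells.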
